A study of Mus musculus with 56 samples.

Results

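The genes described here are the 100 whose signal in blood was higher in 90Sr-injected than in control mice at days 4, 7 and 9 and whose difference was smaller at days 25 and 30. They were taken from 12544 genes that passed a detection filter, out of 30199 genes on the array. For each gene and day the difference is the mean log2 signal of the injected mice minus that of the control mice of the same day, each array having first been set to its own median. The score of a gene is its lowest difference over days 4, 7 and 9 minus its highest difference over days 25 and 30, and the 100 genes of highest score with a lowest early difference above 0 are the members. The members were therefore chosen on these very differences, which are given below as a description with no test.

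The study followed C57BL/6 mice of about 10 to 12 weeks after a single tail vein injection of 200 kBq of 90Sr as a chloride solution, with control mice taken on the same days. Whole blood was drawn by cardiac puncture on days 4, 7 and 9, then again on days 25 and 30 from other mice, and each mouse gave 1 array. There were 4 control and 4 irradiated mice at day 4, and 6 of each at every later day, 56 mice in all. Globin transcripts were depleted from the RNA before labeling, and each array read 1 color. All irradiated mice received the same activity, so the absorbed dose grew with time, and dose and time cannot be told apart.

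90Sr behaves like calcium and settles in bone, where its beta particles reach the marrow in which blood cells are made. Whole blood holds lymphocytes, which are known to be sensitive to radiation, together with granulocytes, monocytes, platelets and young red cells that still carry RNA. A transcript measured in such a mixture can move because cells of a type become more or less frequent. It can also move because each cell carries more or less of it. Fewer cells of a type and less RNA per cell cannot be told apart here. The study's methods state that blood smears were counted by hand and that cell counts did not differ significantly between the groups. Those counts were not used here.

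Spots well above background numbered 17809 to 24698 per array in control mice and 14389 to 22524 in irradiated mice. The median signal of an array before scaling was lower in irradiated mice by 0.66, 0.59, 0.94, 0.66 and 0.59 on the log2 scale over the 5 days in order, with SDs over the mice of a group between 0.15 and 0.42. Arrays lie 4 to a slide on 14 slides. Control and irradiated mice of a day shared only 4 of these slides, 1 each at days 7, 9, 25 and 30, with 2 mice of each group on it. The control mice of day 4 were all on 1 slide and the irradiated mice on another, so that slide and treatment cannot be told apart there.

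The differences of the 100 genes were small at the early days and close to 0 at the late ones. On the log2 scale their median was 0.42, 0.48 and 0.57 over the early days in order, then 0.04 and -0.04 at days 25 and 30. Over all 12544 genes the medians were -0.11, -0.10, -0.16, -0.26 and 0.12 in the same order. An upward difference of at least 2-fold was seen for 4, 10 and 7 members at the early days in order, against 1.92%, 2.46% and 3.78% of all genes. On both late days no member reached 2-fold upward, against 6.18% and 20.6%. At day 25 the members were about evenly split, with 55 of 100 above 0, and at day 30 the number above 0 was 45. The largest early differences were those of Nat9 at day 4 (1.65), Sik2 at day 7 (1.47) and Hist2h2bb at day 9 (1.65).

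**Figure D1:**
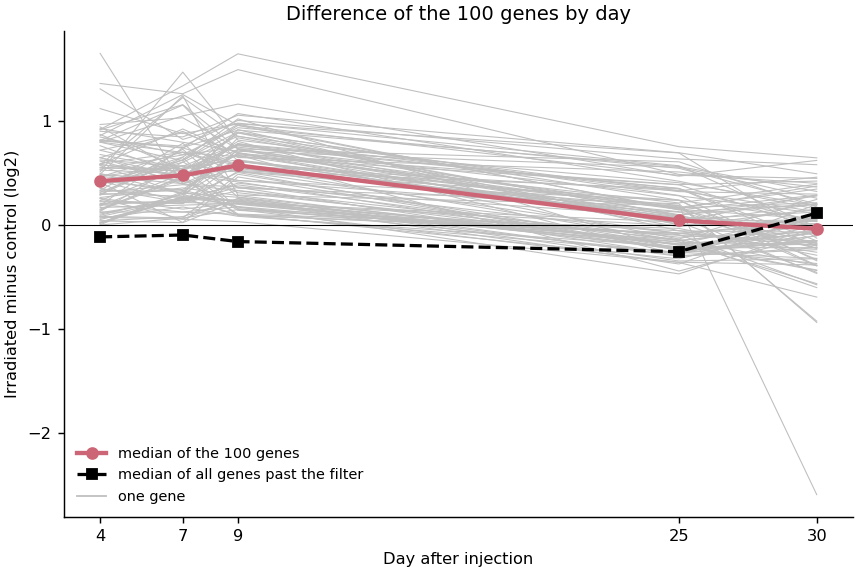
Irradiated minus control signal (log2) on the vertical axis against the day after injection, with 1 gray line for each of the 100 genes, their median in red and the median of all genes past the filter as a dashed black line. The red line lies between 0.42 and 0.57 at the first 3 days and near 0 at days 25 and 30, as the rule that chose the genes requires, and the single line that falls to -2.60 at day 30 is Hpn.

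A gene is called below where limma gave an unadjusted p under 0.001 and the difference was at least 2-fold. These thresholds are those of the study's methods, which applied them to a random-variance test in another program. Since the choice of members used the same differences, these counts are description only. At day 4 only 2 members were called higher, Olfr1349, an olfactory receptor gene, and a probe without a gene name, against 1.39% of all genes. At day 7 the number was 6, among them Hist1h1t, Hpn, Sik2, Hist2h2bb and 1600029D21Rik, against 2.06% of all genes. At day 9 it was 4 (Hist2h2bb, Atp5s, Gm2102 and 1700095A13Rik), against 3.4% of all genes. On both late days it was 0, against 4.88% and 18.6%. Hist2h2bb was the only member called at more than 1 day. No member was called lower at any of the 5 days, against 19.9%, 12.3%, 15.1%, 22.3% and 17.5% of all genes.

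Overlap between the groups was common. Every irradiated mouse lay above every control mouse for 43, 22 and 7 members at the early days in order, against 17.3%, 10.1% and 5.01% of all genes. At day 25 this held for 2 members (Olfr1349 and 2610019E17Rik) against 6.87%, while TC1675241 and Dusp23 lay wholly below the controls, against 33.3% of all genes. At day 30 no member was separated upward, against 19.3%. Apart from those at day 25, no member lay wholly below the controls, against 37.1%, 28.3%, 22% and 15% of all genes at days 4, 7, 9 and 30. Hist2h2bb, Hist1h2ab and Gm2102 were the only members separated at all 3 early days.

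The mean over the 100 genes was also taken in each mouse. These mice entered the choice of the genes, so groups apart early and close late are partly built in. At day 4 the control mice had means of 3.28 to 3.40 and the irradiated mice 3.61 to 3.98 (log2 signal above the array median), and at day 7 the ranges were 3.23 to 3.51 and 3.66 to 4.03, so the groups did not overlap at either day. At day 9 the control mice lay between 2.83 and 3.12 but the irradiated mice spread from 2.77 to 4.25. The lowest and the highest of them were irradiated mice 1 and 3, and the SD of that group was 0.47, against 0.15 and 0.14 in the irradiated groups of days 4 and 7. At day 25 the group means were 3.37 ± 0.07 (SD, n = 6) in controls and 3.44 ± 0.15 in irradiated mice, and at day 30 they were 3.66 ± 0.21 and 3.59 ± 0.28.

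**Figure D2:**
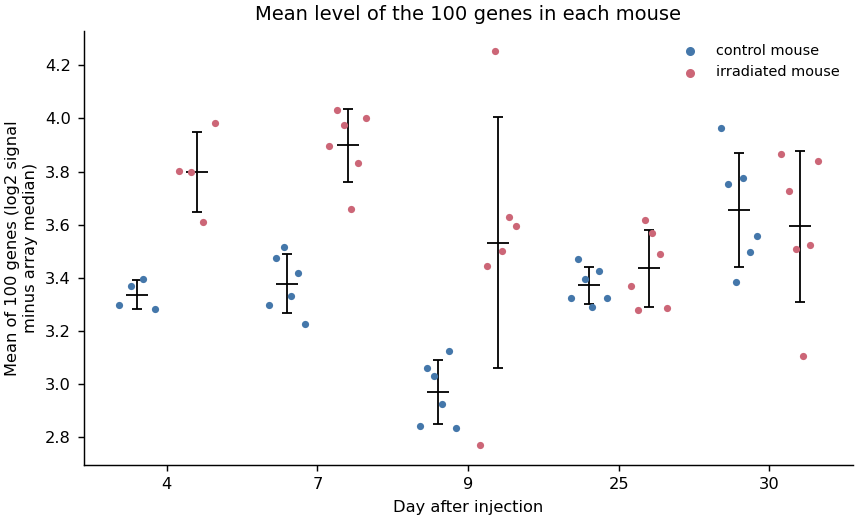
Mean log2 signal (minus the array median) of the 100 genes in each mouse, by day after injection, with blue points for control and red points for irradiated mice and the group mean ± SD in black. The groups are apart at days 4 and 7, irradiated mice of day 9 run from 2.77 to 4.25, and the groups overlap at days 25 and 30. The genes were chosen on these same mice.

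Values of both groups differed between early and late days. From the mean of days 4, 7 and 9 to the mean of days 25 and 30, the median member was lower by 0.22 in irradiated mice (a change of -0.22) and higher by 0.23 in control mice. The medians over all genes were -0.04 and -0.06. Of the 100 members, 87 were lower late than early in irradiated mice and 90 were higher late than early in control mice, with 77 in both counts. In 52 members the control gain was larger than the loss in irradiated mice. Both group means entered the rule, which favors a late rise in controls. Each day had slides of its own, and the controls of each day were scanned in a separate session. A change between days in either group therefore cannot be told apart from slide or scan session. The control mice of day 9 had the lowest mean over the members of all 10 groups (2.97 ± 0.12).

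**Figure D3:**
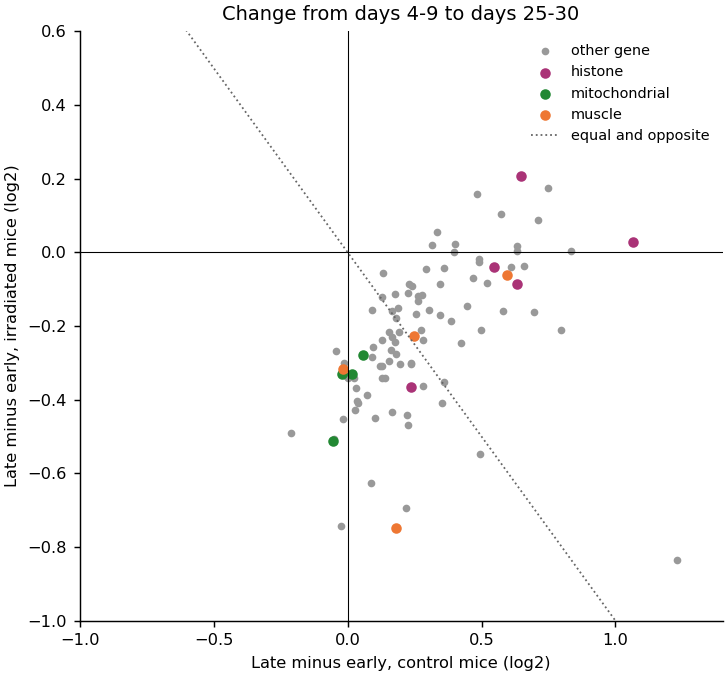
Mean of days 25 and 30 minus mean of days 4, 7 and 9 (log2) for each of the 100 genes, in control mice on the horizontal axis and in irradiated mice on the vertical axis, with 5 histone, 4 mitochondrial and 4 muscle genes (Myh6, Myl2, Mylk and Cnn1) in color. Most points lie right of 0 and below 0, and those right of the dotted line are genes whose gain in control mice exceeds their loss in irradiated mice. The histone genes lie to the right and the 4 mitochondrial genes near 0 on the horizontal axis and below 0 on the vertical axis.

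The gene of highest score was Myh6 (0.78), which encodes the alpha heavy chain of heart muscle myosin. Its probe lies at chr14:55560774-55560833 on build mm9. Day 4 control mice gave -0.29, 0.27, 0.43 and 0.77, and irradiated mice 0.92, 1.06, 2.22 and 2.43, with no overlap. At day 7 the lowest, median and highest values were -0.48, 0.18 and 1.32 in controls and 0.17, 1.52 and 3.41 in irradiated mice. At day 9 they were -0.78, 0.00 and 1.97 in controls and 0.75, 1.56 and 2.94 in irradiated mice. The groups overlapped at both days, and the spread among mice was about as wide as the difference. Its difference was 1.36, 1.26 and 1.5 at the early days and 0.49 and 0.40 at days 25 and 30.

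Myh6 was well above background on 42 of 56 arrays, the least the filter admits, and its second probe on 0 arrays. Other genes of contractile cells among the members were Myl2, the regulatory light chain of heart myosin (0.58, 1.23 and 0.85 at the early days), Cnn1, a calponin of smooth muscle (0.46, 0.70 and 0.51), Mylk, the kinase that switches on smooth muscle myosin (0.00, 0.32 and 0.18), and Dmpk, the myotonic dystrophy kinase (0.65, 0.90 and 0.65). Of 16 cardiac genes listed after the values had been seen, 4 passed the filter and 2 were members, and of 8 smooth muscle genes 6 passed and 2 were members. The genes of these lists that passed and were not members had other courses over the 5 days. Myl3, a light chain of heart myosin, was at 0.39, 0.71, -0.53, 1.14 and 2.4, and Nppa, the atrial natriuretic peptide, at 0.32, 0.74, 0.09, 0.95 and 1.78. Acta2, the actin of smooth muscle, was at -0.71, -0.21, -0.39, -0.38 and 0.10, and Tagln, transgelin, at 0.52, -0.10, 0.11, 0.41 and 3.18. Myl9 and Smtn lay between -0.11 and 0.36 at the early days and were at 0.56 and 0.41 on day 30. The cardiac genes Myl7 and Pln were well above background on no array. The blood was taken through the heart, and the part of carried-over tissue in these values was not tested.

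**Figure D4:**
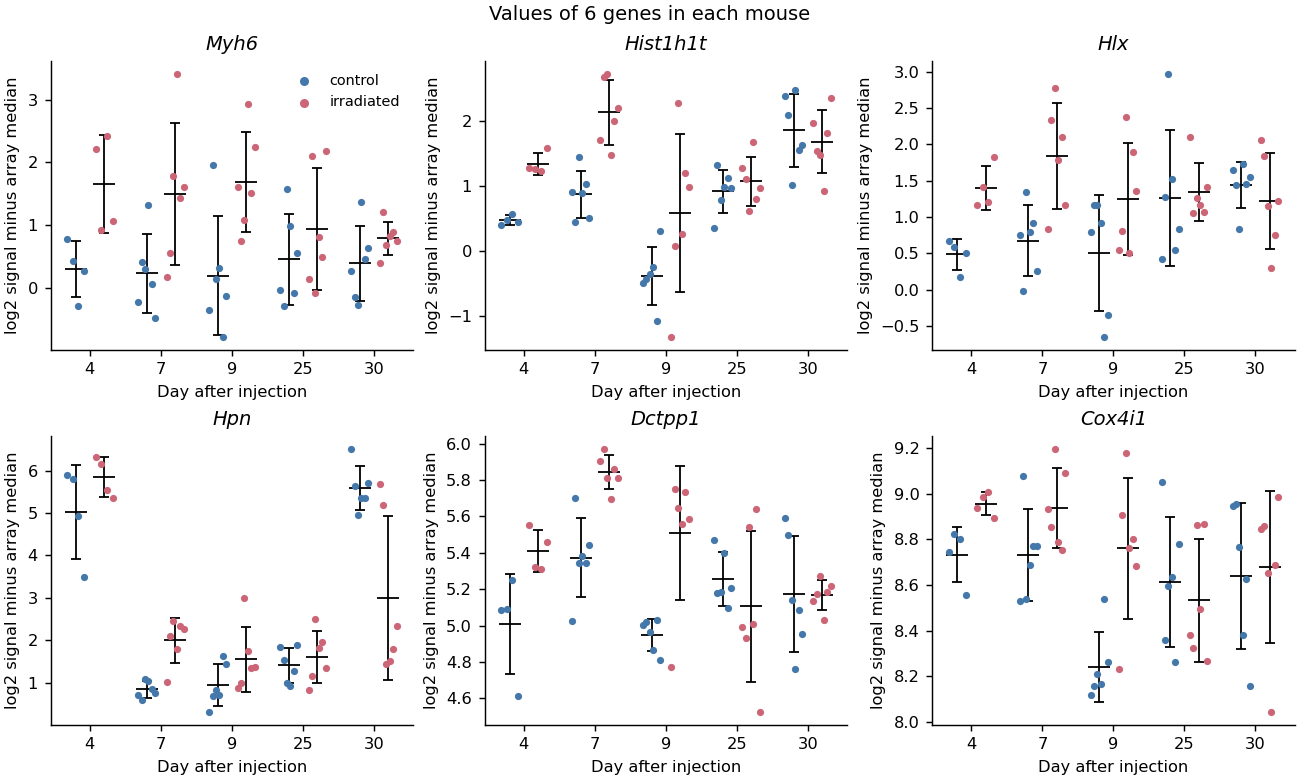
Log2 signal minus the array median of 6 member genes in each mouse by day after injection, blue for control and red for irradiated mice, with group mean ± SD in black. The groups of Hist1h1t are apart at days 4 and 7, those of Myh6 and Hlx overlap at day 7, and Hpn is above 3 in all day 4 mice, in day 30 control mice and in 2 irradiated mice of day 30.

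Histone genes made up 5 members: the linker histones Hist1h1t, Hist1h1b and Hist1h1e, and the core histones Hist1h2ab and Hist2h2bb. Replication-dependent histone transcripts are made as cells copy their DNA. Their median difference was 0.43, 0.62 and 0.90 at days 4, 7 and 9, and 0.15 and -0.18 at days 25 and 30. The 42 histone cluster genes that passed the filter, a list drawn up after the values had been seen, had medians of 0.51, 0.23, 0.51, 0.11 and 0.59. Since members were chosen for small late differences, nothing is read from the late values of the 5 against those of the family. Labeling kits that start from a poly(A) tail read such transcripts poorly, since most of them lack one.

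Hist1h1t, the linker histone of the testis, had a score of 0.71, second to Myh6. Day 4 controls gave 0.40, 0.45, 0.47 and 0.58, and irradiated mice 1.22, 1.26, 1.27 and 1.58. At day 7 controls ranged from 0.45 to 1.45 with a median of 0.90, and irradiated mice from 1.48 to 2.72 with a median of 2.10. The groups did not overlap at either day. At day 9 controls lay at -1.07 to 0.31 and irradiated mice at -1.31 to 2.27, with overlap. On day 30 both groups stood higher, at 1.85 ± 0.56 (SD, n = 6) in controls and 1.68 ± 0.48 in irradiated mice. From early to late days Hist1h1t differed by 1.06 in control mice and by 0.03 in irradiated mice.

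Hist2h2bb, a core histone of the H2B family, was apart from the controls at each early day. Controls at day 4 gave 0.57, 0.68, 0.89 and 1.05, and irradiated mice 1.30, 1.35, 1.60 and 2.62. At day 7 the ranges were 0.73 to 1.24 (median 1.06) and 2.19 to 2.62 (median 2.36). At day 9 they were 0.07 to 0.85 (median 0.56) and 1.48 to 2.80 (median 2.26). The groups thus did not overlap, with differences of 0.92, 1.34 and 1.65. Its differences at days 25 and 30 remained at 0.75 and 0.65, so a smaller difference was still seen late. The other histone members differed less, with Hist1h1b at 0.43, 0.49 and 0.67, Hist1h1e at 0.15, 0.47 and 0.14, and Hist1h2ab at 0.41, 0.62 and 0.90 at the early days.

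The 120 bases before the transcription start of these 5 genes are shown because they are related genes that were chosen together. They come from RefSeq on build GRCm38.p6, read on the strand of the gene, with CCAAT and TATAAA in capitals in either direction, so that ATTGG marks CCAAT on the other strand. Hist1h1t lies at chr13:23695691-23695810 (+), Hist1h1b at chr13:21780626-21780745 (-), Hist1h1e at chr13:23622559-23622678 (-), Hist1h2ab at chr13:23750968-23751087 (+) and Hist2h2bb at chr3:96269580-96269699 (+).
Hist1h1t: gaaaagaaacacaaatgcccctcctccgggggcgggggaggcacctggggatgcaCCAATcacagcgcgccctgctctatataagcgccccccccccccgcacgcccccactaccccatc
Hist1h1b: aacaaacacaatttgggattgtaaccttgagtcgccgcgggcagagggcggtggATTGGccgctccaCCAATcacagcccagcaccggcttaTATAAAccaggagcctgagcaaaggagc
Hist1h1e: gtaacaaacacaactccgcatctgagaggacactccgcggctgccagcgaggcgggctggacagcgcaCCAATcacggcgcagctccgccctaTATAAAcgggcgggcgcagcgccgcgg
Hist1h2ab: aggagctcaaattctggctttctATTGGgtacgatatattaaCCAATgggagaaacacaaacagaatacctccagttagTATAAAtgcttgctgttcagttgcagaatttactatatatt
Hist2h2bb: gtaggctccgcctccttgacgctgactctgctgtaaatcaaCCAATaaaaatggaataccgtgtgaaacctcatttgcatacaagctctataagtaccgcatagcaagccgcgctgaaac

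CCAAT was found in all 5 stretches and TATAAA in 3 of them. A promoter window of 300 bases, 250 before and 50 after the start, was on hand for 53 of the 100 members in 68 entries. In these windows CCAAT occurred in 48.5% of member entries and 37.4% of all 32851 entries, and TATAAA in 17.6% and 13.6%. GGGCGG, the core of GC boxes, occurred in 51.5% and 35.7%. GATAAG, a form bound by GATA factors of red cell precursors, occurred in 5.9% and 7.4%, the p53 half-site in 7.4% and 8.4%, and TGCNCNC, the core of metal response elements, in 70.6% and 51.0%. The other motifs searched were CACGTG (E box), TGA and TCA with any base between them (bound by AP-1), TGACNNNGC (the core of the antioxidant response element), GAAA repeated after any 2 bases (that of the interferon response element), CACCC (bound by KLF factors), GGAAGT (bound by ETS factors) and TTGCNNAA (bound by C/EBP factors). They differed by at most 8.7 percentage points between member and all entries. Several entries can belong to 1 gene, and both strands were searched.

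Of the members that act in transcription and chromatin, 6 are described here. Hlx, a homeobox factor of blood cell development, was the third gene of the set. Its day 4 controls gave 0.18, 0.50, 0.59 and 0.67, and the irradiated mice 1.17, 1.2, 1.41 and 1.83, with no overlap. At day 7 controls ranged from -0.02 to 1.35 (median 0.77) and irradiated mice from 0.84 to 2.78 (median 1.95), with overlap. At day 25 the control mean of 1.26 ± 0.94 (SD, n = 6) held 1 mouse at 2.96, and the difference was 0.08. From early to late days the controls differed by 0.80 and the irradiated mice by -0.21.

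The other genes of this group differed less. E2f1, which drives entry into S phase, was at 0.41, 0.02 and 0.46. Suv39h1, a methyltransferase of histone H3 in silent chromatin, was at 0.19, 0.74 and 0.58. Polr2l, a small subunit shared by the RNA polymerases, was at 0.09, 0.29 and 0.17. Brf2, an initiation factor of RNA polymerase III, was at 0.12, 0.25 and 0.39, and Zfp146 at 0.02, 0.28 and 0.23. At days 25 and 30 these 6 genes lay between -0.47 and 0.08.

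Dctpp1, the enzyme that removes dCTP from the nucleotide pool, gave a bright signal with a small spread. Day 4 controls gave 4.61, 5.08, 5.09 and 5.25, and irradiated mice 5.31, 5.32, 5.46 and 5.55. At day 7 controls lay at 5.02 to 5.70 (median 5.37) and irradiated mice at 5.70 to 5.97 (median 5.84), so the groups met at 5.70. At day 9 they lay at 4.81 to 5.03 (median 4.98) and 4.77 to 5.75 (median 5.62), where irradiated mouse 1 lay below every control. The differences were 0.40, 0.47 and 0.56, then -0.15 and 0.00. Rnaseh2b, a subunit of the nuclease that cuts RNA in RNA-DNA hybrids, was at 0.39, 0.66 and 0.97, and Rexo1, an RNA exonuclease, at 0.33, 0.79 and 0.36 and then at -0.94 on day 30.

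Mitochondrial genes described here were 4 members: Cox4i1 of cytochrome c oxidase, Uqcrq of complex III, Ndufb6 of complex I and Atp5s, a factor coupled to ATP synthase. Their median difference was 0.39, 0.38 and 0.64 at the early days and 0.04 and 0.21 at days 25 and 30. From early to late days all 4 were lower in irradiated mice by more than the change in controls, which lay between -0.05 and 0.06. In the 5 histone genes the controls changed by 0.24 to 1.06, a contrast that was noticed in the data and not tested.

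Cox4i1 had a steady signal on all 56 arrays. At day 4 controls gave 8.56, 8.75, 8.80 and 8.82, and irradiated mice 8.90, 8.94, 8.98 and 9.01, with no overlap. At day 7 controls lay at 8.53 to 9.08 (median 8.73) and irradiated mice at 8.76 to 9.20 (median 8.89), with overlap. At day 9 controls lay at 8.12 to 8.54 (median 8.19) and irradiated mice at 8.23 to 9.18 (median 8.78). The differences were 0.22, 0.21 and 0.52, then -0.08 and 0.04. Of the list of 20 oxidative phosphorylation genes it was the single member, and the list's medians were -0.29, -0.13, -0.01, -0.38 and -0.16 over the 5 days. By limma's fit, 0, 0, 4, 0 and 2 genes of that list were called higher and 4, 1, 4, 5 and 2 lower. Among its genes outside the members, Sdhc, Ndufb5 and Ndufv1 had early differences of -0.76 to -1.28.

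Rpl36a and Gm13826 encode proteins of the large ribosomal subunit or a close copy of one, and transcripts of near-identical copies cannot be told apart on such probes. Rpl36a at day 4 gave 8.82, 8.87, 8.88 and 9.25 in controls and 9.15, 9.19, 9.53 and 9.64 in irradiated mice, with overlap at 1 control. Controls of day 7 lay at 8.94 to 9.20 (median 9.05) and irradiated mice at 9.22 to 9.82 (median 9.54), with no overlap. Its differences were 0.42, 0.48 and 0.73 early and 0.17 and 0.21 late. Of 20 cytosolic ribosomal protein genes on the list none was a member, and their medians were -0.26, -0.33, 0.03, -0.54 and -0.28.

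Mt3, a metallothionein best known from brain, was the member from the list of metal handling genes. At day 4 it gave 4.11, 4.77, 4.90 and 5.05 in controls and 4.95, 5.26, 5.42 and 5.48 in irradiated mice. At day 9 controls lay at 3.84 to 4.14 (median 4.03) and irradiated mice at 3.75 to 5.64 (median 4.62). Its differences were 0.57, 0.30 and 0.61, then 0.18 and -0.39. Mt1 and Mt2, the metallothioneins of most tissues, lay higher by 1.05 to 2.76 at the 5 days, and the values of Mt3 were smaller at each of them. Of the 14 metal handling genes 12 were tested, with 1, 2, 2, 3 and 5 called higher and 3, 0, 1, 2 and 0 called lower.

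Of the kinase and phosphatase members, 6 are grouped here, with Dmpk of the contractile genes included and Mylk left out. Sik2, a salt-inducible kinase, was at 0.51, 1.47 and 0.82 early and 0.32 and 0.30 late. Its second probe, well above background on 32 arrays and so not past the filter, was at -0.37, -0.72, -0.17, -0.92 and -0.82 over the days in order. Ctdspl, a small phosphatase that acts on RNA polymerase II, was at 0.94, 0.50 and 0.52. Prkab2, a regulatory subunit of the AMP-activated kinase, was at 0.35, 0.22 and 0.21. Ptpn18 and Dusp23, both protein phosphatases, were at 0.35, 0.26 and 0.23 and at 0.20, 0.13 and 0.17, and Dusp23 lay at -0.47 on day 25. Fbxl19, Ube2w, Usp50 and Dcaf15, 4 members of the ubiquitin pathway, had median differences of 0.22, 0.39, 0.16, -0.11 and -0.18. Fam175b was not in that group.

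Several members are best known outside blood. L1cam, an adhesion molecule of neurons, at day 4 gave 1.77, 1.81, 1.83 and 2.32 in controls and 2.02, 2.10, 2.14 and 2.73 in irradiated mice. At day 9 controls lay at 1.59 to 4.14 (median 1.96) and irradiated mice at 1.79 to 6.46 (median 3.14), a difference of 1.02 with 1 irradiated mouse at 6.46 and the next at 3.47. Hcrtr1, an orexin receptor, was at 0.80, 0.70 and 0.66, Slc18a3, the vesicular acetylcholine transporter, at 0.58, 0.47 and 0.81, Homer1, a scaffold of the synapse, at 0.81, 0.76 and 1.01, and Celf3, an RNA-binding protein, at 0.87, 0.54 and 0.76.

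Defb15, a beta-defensin, at day 4 gave 0.07, 0.43, 0.88 and 0.93 in controls and 1.06, 1.27, 1.35 and 1.51 in irradiated mice. Controls of day 7 lay at -0.19 to 0.52 (median 0.31) and irradiated mice at 0.62 to 1.79 (median 1.24). The groups did not overlap at either day. Its differences were 0.72, 0.89 and 0.70, then -0.13 and 0.25. Of the remaining genes among the 15 of highest score, Iffo2, an intermediate filament family gene, was at 0.53, 0.50 and 0.41, a filaggrin transcript (ENSMUST00000050758) at 0.58, 0.52 and 0.89, and Dleu2, a non-coding RNA that hosts a microRNA cluster, at 0.32, 0.39 and 0.33. Fam175b, a scaffold of a deubiquitinating complex, was at 0.23, 0.21 and 0.33, BC128469 at 0.25, 0.06 and 0.03, a predicted gene (ENSMUST00000044043) at 0.04, 0.08 and 0.25, and the unnamed probe A_55_P2039354 at 0.62, 0.41 and 0.92.

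Hpn, hepsin, a serine protease of the cell surface known from liver, had levels that differed widely between days and slides. At day 4 controls gave 3.50, 4.94, 5.80 and 5.89 and irradiated mice 5.36, 5.53, 6.16 and 6.33. At day 7 controls lay at 0.59 to 1.1 (median 0.80) and irradiated mice at 1.03 to 2.47 (median 2.19), and at day 9 both groups lay between 0.32 and 3.0. At day 30 all controls lay at 4.96 to 6.50, while the irradiated mice ran from 1.45 to 5.69. The 2 irradiated mice on the slide that also held controls had a mean of 5.44, and the 4 on a slide without controls a mean of 1.77. Within the shared slide the day 30 difference was -0.09, against -2.60 over all mice.

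Nat9, a putative acetyltransferase, had the largest difference at day 4, where irradiated mouse 4 lay at 8.29 and the other irradiated mice lay at 2.45 to 2.55. With medians over the mice in place of means, 56 of the 100 members remained among the 100 genes of highest score. Without irradiated mice 1 and 3 of day 9, a setting added after the values were seen, 91 remained, and the number of members separated at day 9 was 40 in place of 7. The share of all genes separated was not computed for that setting, so nothing is read from the 40.

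The 4 slides that held both groups gave values within a slide, from 2 mice against 2. The median over the members was 0.55, 0.16, -0.08 and 0.27 from day 7 on, against -0.13, -0.16, -0.32 and 0.12 over all genes. Within a slide 98 members lay above 0 at day 7 and 60 at day 9, but 39 at day 25 and 81 at day 30. Both early within-slide differences were above 0 and above both late ones for 19 of the 100 members, against 7.8% of all genes. These mice also entered the choice of the members, so a larger share among members is partly built in and the counts are description only. At days 7 and 30 the 4 irradiated mice on a slide without controls were also scanned in another session than the controls of the day. At day 30 the 2 irradiated mice of the shared slide had member values higher than those 4 by 0.23 in the median (-0.01 over all genes). For Hist2h2bb the within-slide differences were 1.37, 1.28, 0.58 and 0.99, for Dctpp1 0.50, 0.34, -0.19 and 0.13, and for Hist1h1t 1.28, -0.24, 0.15 and 0.16.

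A second probe of the same gene reads the same mice at another place in the transcript. Of the 100 members 33 had further probes, 42 in number, of which 12 in 11 genes passed the filter. Of those 12, 5 had all early differences above 0, and 2 also had a score above 0, those of Hcrtr1 (0.85, 0.67 and 0.57, then 0.33 and 0.19) and of Rpl36a (0.39, 0.54 and 0.72, then 0.20 and 0.31). A further probe of Rpl36a, well above background on all 56 arrays, was at -0.04, -0.06 and 0.12, then -0.27 and -0.11. The second probe of Snx9, a sorting nexin of endocytosis, lay at -1.5, -1.44, -1.35, -1.59 and -1.94 where the member's probe lay at 0.24, 0.55, 0.63, 0.09 and -0.19. Second probes of Polr2l (1.14 and 1.11) and Mylk (0.64 and 0.59) were higher, not lower, at days 25 and 30, and that of Mipol1 was at 0.39, 0.98 and -0.62 and then at 0.69 and 1.94. Those of Ndufb6 and Uqcrq were above 0 early but had late values as high as an early one. Second probes of Add1 (-0.09, 0.21 and 0.21) and Fbxl19 (-0.28, 0.20 and 0.22) were below 0 at day 4. Some further probes fell short of the filter but were well above background on 28 arrays or more. Those of Sik2, Fam175b, Ube2w and Rexo1 (32, 34, 38 and 29 arrays) lay below 0 at every day, and those of Homer1 (28 and 31 arrays) above 0. Another probe of Homer1, on 23 arrays, lay below 0 at every day (-0.06, -0.45, -0.76, -0.43 and -0.72). So did a probe of Dleu2 on 23 arrays (-2.13, -0.83, -1.03, -1.02 and -1.31).

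Add1, alpha-adducin of the membrane skeleton of red cells, showed how small some chosen differences were. At day 4 controls gave 9.12, 9.17, 9.21 and 9.23 and irradiated mice 9.08, 9.22, 9.34 and 9.41. At day 30 controls lay at 8.92 to 9.28 (median 9.18) and irradiated mice at 7.27 to 9.43 (median 8.96). The groups overlapped on both days, and the differences were 0.08, 0.26 and 0.09 early and -0.26 and -0.32 late.

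Many members gave dim spots. Of the 100, 36 were not well above background on at least 1 array (25.9% of all genes past the filter), and 38% had a mean signal under 2 on the log2 scale above the array median (20% of all). 9130403I23Rik was well above background on no irradiated array of day 9. Genes on the array that were well above background on no array, 5551 of them, had median differences of 0.52, 0.37, 0.80, 0.81 and 1.08 over the 5 days, days at which the array medians of irradiated mice were lower. The 38 dim members had medians of 0.52, 0.53, 0.67, 0.02 and -0.03. All 2515 genes past the filter with a signal under 2 had -0.05, -0.03, -0.17, -0.11 and 0.14. The 25 members with a signal of 5 or more had 0.22, 0.26, 0.49, -0.10 and -0.02. All 3997 genes at that level had 0.08, 0.08, 0.13, -0.03 and 0.43. Members were chosen for early differences above 0, so nothing is read from these contrasts. The part of background signal in the members' early differences was not tested.

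Markers of blood cell types also differed between the groups, and their part in the members' values was not tested. The 20 red cell precursor genes, all of them tested, had median differences of 0.57, 0.61, 1.07, 0.56 and 1.18, and their summed signal (log2) lay at 16.17 to 17.40 in control mice and 16.96 to 18.04 in irradiated mice. By limma's fit 0, 1, 11, 0 and 12 of them were called higher. The 14 tested B cell genes had medians of -2.13, -1.69, -2.03, -2.37 and -2.39, with 12, 12, 11, 12 and 12 called lower. The medians of the other lists were, for the 20 T cell genes -0.62, -0.70, -0.48, -0.71 and -0.73, the 14 neutrophil genes -0.72, -0.05, -0.28, -0.58 and 0.06, and the 20 platelet genes 0.10, 0.03, 0.13, -0.07 and 0.79. None of these lists held a member, and no list, the metal handling and oxidative phosphorylation lists included, had a median above 0 at the early days that returned to 0 or below at both late days. The 17 cell cycle genes tested had medians of 0.22, 0.50, 0.97, 0.42 and 1.0.

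The sign of the early difference and the size of the difference at day 25 depended on how arrays were scaled. Scaled by the 75th percentile, the members' medians were 0.90, 0.83, 0.97, 0.53 and 0.15, a setting that moved the median of all genes up by 0.48, 0.35, 0.39, 0.48 and 0.19. With no scaling they were -0.23, -0.11, -0.37, -0.62 and -0.63, where all genes had -0.77, -0.69, -1.1, -0.92 and -0.48. With another background correction, normexp with an offset of 50, they were -0.02, 0.06, -0.03, -0.22 and -0.29, where all genes had -0.43, -0.36, -0.56, -0.55 and -0.26. Under each of these settings the members' median lay above that of all genes at days 4, 7, 9 and 25 and below it at day 30.

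**Figure D5:**
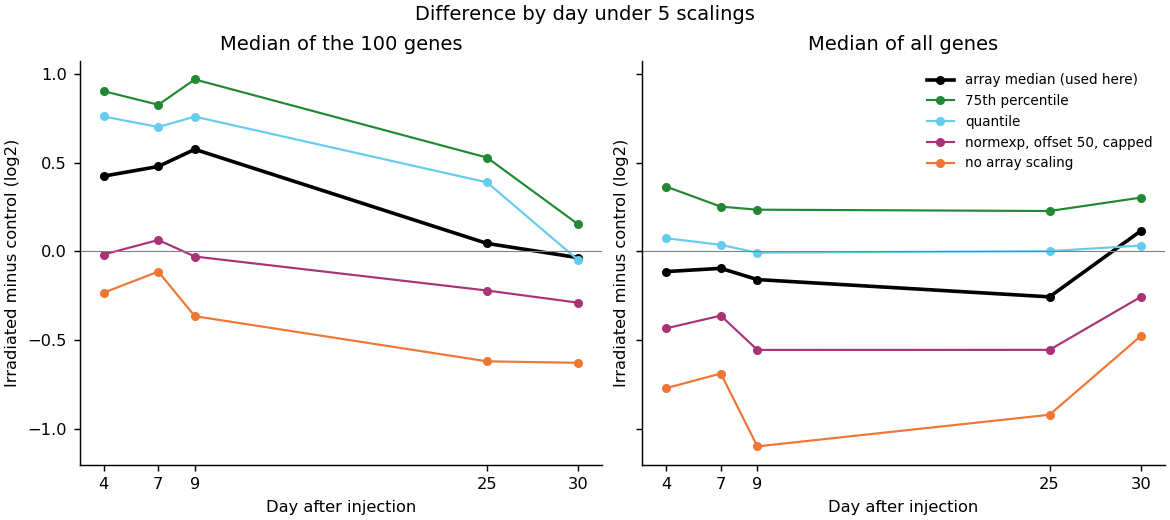
Median difference between irradiated and control mice (log2) by day after injection, for the 100 genes on the left and all genes past the filter on the right, with 1 line for each of 5 ways of scaling the arrays. The lines on the left are shifted against each other, from 0.90 to -0.23 at day 4, and the early values lie above 0 under 3 of the 5. The lines also differ in how far they fall. At day 25 the members' median was 0.53 with the 75th percentile and 0.39 with quantile scaling, against 0.04 with the array median.

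The last members and the first genes left out had scores close to each other. The members ranked 98 to 100, A_55_P2186210, Frg1 and 1600029D21Rik, had scores of 0.1001, 0.1001 and 0.09998. The next genes, F630048H11Rik, Rnf157 and 4930481A15Rik, had scores of 0.09894, 0.0978 and 0.09449. Of the 3619 genes with a lowest early difference above 0, 217 had a score above 0 and 4 a score above 0.5, and the median score of all genes was -0.46.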

How the data were processed

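Blood RNA of 56 mice was hybridized by the authors to 1-color Agilent whole mouse genome arrays of 44397 spots. The deposited values are intensity on a linear scale, the processed signal of Feature Extraction after background correction (version 10.7 per the labels, 11.5.1.1 per the file headers), with flags for each spot and no scaling between arrays. The authors also deposited a table of log2 values, median normalized, which served as an alternative.

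From these intensities the 43020 non-control spots were taken, log2 was taken, each array's median was subtracted and spots of a probe were averaged. Each gene was given its brightest probe, kept if well above background on at least 42 of 56 arrays. The members and the gene lists were chosen with earlier results of these data known. Fits used limma 3.58.1 in R 4.3.3, with the irradiated and control mice of 1 day at a time, and were tested on simulated data. Calls follow the methods' threshold of an unadjusted p under 0.001 and at least 2-fold. Groups came from the sample titles, each of them a mouse. The number of arrays limits the precision. The p-values over all genes set a difference between groups against the spread within them, and slide was not part of the main fit.

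Named genes were the 15 members of highest score, members in a list, up to 10 members with a further probe past the filter, and the genes next to the threshold. Other genes named were chosen after their values were seen. RefSeq symbols (GRCm38.p6) matched 67 of 100 members, and promoter entries 53. Probe positions are those of the files, build mm9.

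The titles number the replicates and do not say that same-numbered mice are paired. At day 4, where the groups were on separate slides, the correlations of same-numbered deviations were 0.12 to 0.43 in the 4 pairs. At the later days they were not above 0.1 in every pair. Alternatives covered scaling, background correction, detection filter, probe choice, the authors' values, slide and replicate blocks, and each array left out in turn. The authors' counts of changed genes and fold changes were not used. Values of some genes are not reported here.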

Additional observations from a re-analysis of the deposited data

Results flagged for a closer look

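In 12 member genes, whose values are given for each mouse or by their range, and in the mean over the 100 members, the gap of the highest or lowest mouse to its nearest neighbor was set against the whole range of its group, for 130 groups. The gap took up more of the range than Dixon's critical value in 14 of them, all of single genes, where chance gives about 1 in 20. All values are log2 signal above the array median.

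Among the early groups, Hist1h1t of irradiated mouse 4 at day 4 was at 1.583 with the next at 1.275, and L1cam of the same mouse was at 2.732 with the next at 2.136. L1cam of control mouse 4 at day 4 was at 2.316, above the next at 1.832, and Rpl36a of control mouse 3 at 9.251, above the next at 8.882. Defb15 of control mouse 6 at day 7 was at -0.1855, below the next at 0.2938. At day 9, L1cam of irradiated mouse 3 was at 6.463 and the next at 3.465. Irradiated mouse 1 of day 9 was lowest in Dctpp1 (4.771, the next at 5.558) and in Rpl36a (8.085, the next at 9.361). Among day 9 controls, Add1 of mouse 6 was at 7.892 with the next at 8.505, and Cox4i1 of mouse 5 at 8.54 with the next at 8.264.

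Of the late groups, Hlx of irradiated mouse 1 at day 25 was at 2.105, above the next at 1.418, and Hlx of control mouse 3 at day 30 was at 0.842, below the next at 1.44. Add1 of irradiated mouse 5 at day 30 was at 7.269, below the next at 8.76, and Cox4i1 of irradiated mouse 4 at 8.046, below the next at 8.655. Why these mice differed was not tested.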

How the results depend on the processing

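Of the values computed for groups of genes under other settings, 237 stayed within the spread between replicates or within 1.5 times the count, and 183 did not. Medians are log2 differences over the members, called means limma's unadjusted p under 0.001 with at least 2-fold, and separated means every irradiated mouse above every control. The share of all genes separated was not computed under the other settings, so nothing is read from their counts of members separated. Counts of members called come from the differences that chose the members, and nothing is read from them either. The median change from early to late days kept its sign in both groups of mice under every setting in which it was computed. It was not computed for slide or replicate blocks, shared slides alone, medians over mice or the fit of all groups. The members were chosen on the same arrays for a difference that falls, so the kept sign is no independent check. Causes of the shifts given here were not tested, save that a filter changes which genes are tested and a left-out array changes the number of mice.

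Scaling moved most values. With the 75th percentile, 33 members stayed among the 100 genes of highest score, and the medians at days 4, 7, 9 and 25 were 0.90, 0.83, 0.97 and 0.53. The members separated numbered 83, 66, 42, 28 and 3 over the 5 days, those called higher 34, 26, 34 and 9 over the first 4, all genes called higher 1509, 1227, 1423 and 2461, and lower 783, 354, 552 and 702. With quantile normalization 38 members stayed, the medians of days 4, 7 and 25 were 0.76, 0.70 and 0.39, and the members separated from day 7 on numbered 54, 29, 17 and 1. Members called higher were then 22, 20, 19 and 4 up to day 25, all genes called higher 783, 749, 644 and 1685, and lower 988, 451, 843 and 854. Centering on the median of probes well above background on all arrays kept 28 members, with medians of 0.83, 0.77 and 0.48 on days 4, 7 and 25. Up to day 25 it gave 74, 66, 39 and 25 members separated, 26, 20, 23 and 7 called higher, 1137, 1002, 1083 and 2240 genes called higher, and 995, 439, 826 and 800 lower.

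Without any scaling, a setting added after the data were seen, 10 members stayed and the medians were -0.23, -0.11, -0.37, -0.62 and -0.63. Members separated were 1, 2, 1 and 0 up to day 25, and those called higher 0 at each early day. Over the 5 days 16, 4, 7, 12 and 356 of all genes were called higher, and 4989, 4476, 6305, 5774 and 3711 lower. The planned normexp correction could not be fitted on some arrays, whose median signals ran up to 1455, so the local background was capped at its 99th percentile, a choice also made after seeing the data. It kept 32 members, with medians of -0.018, 0.064, -0.029, -0.22 and -0.29. It left 12, 3, 1 and 0 members separated up to day 25, 0 members called higher at each early day, and 3, 2, 4, 9 and 248 of all genes called higher.

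Filters came next. Requiring detection on all 56 arrays left 9292 genes to test, 64 of them members. All 64 were among the 100 of highest score, with 0 members called higher at day 7 and 1 at day 9. It gave 100 and 168 genes called higher on days 4 and 7, and 1404, 770, 979, 1580 and 1214 lower. No filter, over all 30199 genes, left 8 members among the top 100. It gave 597, 530, 1665, 1704 and 6882 genes called higher and 2406 lower at day 7. The filters of the methods, which passed 58 members, left 10, with medians of 0.58, 0.62 and 0.19 on days 4, 7 and 25, 21 members separated at day 4 and 2 at day 30, 1 called at day 30, and 406, 505, 790 and 1077 genes called higher up to day 25 and 2339 lower at day 7. A mean over a gene's probes separated 2 members at day 30 and called 1. The authors' processed values, which held 54 members, left 9 in the top 100, with medians of 0.54, 0.21 and -0.41 on days 4, 25 and 30. They called 2 members on day 9 and 1 on day 30, 376, 1289 and 1377 genes higher on days 4, 25 and 30, and 2662, 3085 and 4434 lower on days 7, 9 and 30.

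Slide moved counts of calls from day 7 on and medians from day 9 on. With slide as a fixed block the medians of days 9, 25 and 30 were 0.16, -0.082 and 0.27, and 0 members were called at day 9. From day 7 on it called 123, 135, 9 and 91 genes higher, and from day 9 on 706, 53 and 232 lower. As a random block it called 336 genes higher at day 25. On slides with both groups alone, 2 mice against 2, the same medians held, 78, 19, 15 and 60 members were separated from day 7 on, and 2 and 0 members were called on days 7 and 9. Genes called higher were then 27, 29, 7 and 399, and lower 656, 134, 12 and 1191. Leaving out the 4 irradiated mice of day 30 on a slide with no control kept 62 members, separated 11 at day 30, and called 204 genes higher and 510 lower. Leaving out irradiated mice 1 and 3 of day 9 separated 40 members there, with 761 genes called higher and 1219 lower. Medians over mice kept 56 members.

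Leaving out 1 array at a time gave 2 to 5 members called at day 4 (5 without irradiated mouse 3) and 2 to 13 at day 9 (2 without irradiated mouse 3, 13 without irradiated mouse 1). Members separated ranged from 22 to 37 at day 7, the top without irradiated mouse 4, from 7 to 39 at day 9, the top without irradiated mouse 1, from 2 to 7 at day 25, the top without irradiated mouse 2, and from 0 to 3 at day 30, the top without irradiated mouse 4. All genes called higher ranged from 142 to 210 at day 4 and from 161 (without irradiated mouse 2) to 324 at day 7. At day 9 they ranged from 304 to 696 (without irradiated mouse 1), and at day 25 from 388 (without irradiated mouse 3) to 832. Between 80 and 97 members stayed among the 100 of highest score.

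The replicate number as a block gave 2, 7, 4, 0 and 0 members called higher over the 5 days and moved no count of calls by over 1.5 times. Same-numbered mice were correlated above 0.1 in 4 of 4 pairs at day 4, but in 2, 2, 1 and 4 of the 6 pairs of the later days. The labels do not state that same-numbered mice are paired. Of the members called at day 7, Hist1h1t, Hpn and 1600029D21Rik were followed singly. They kept their direction in all 42 values and fell short of the call in 14: without scaling (0.66, 0.56 and 0.65), with normexp (0.39, 0.33 and 0.38), with slide as a fixed block or on shared slides (1.28, 0.99 and 0.91), and for Hpn and 1600029D21Rik in 1 fit of all 10 groups.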
